A study of Schizosaccharomyces pombe with 9 samples.

Results

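The comparison set deletions of the 1C class against deletions of the weak 4C (W4C) class in Schizosaccharomyces pombe, without the wild type array. A gene was taken as separated when both arrays of one class lay above both arrays of the other on the deposited log2 scale, and 1814 of 2899 named S. pombe genes were. The 1C class held the SPAC27D7.08C deletion (written SPAC27D7.08cΔ here, a gene called mtl16 in the RefSeq gene table) and the SPBC2A9.02 deletion, and the W4C class held the meu29+ deletion and the sgf73+ deletion. The series held 9 arrays of total RNA from untreated cells in exponential growth, 1 for each of 8 single-gene deletions and 1 for wild type. The deletions came from a haploid deletion library made in an auxotrophic background, were picked by the study for sensitivity to DNA-damaging agents, and were classed by their DNA content in flow cytometry. The other 4 deletions, SPAC3F10.17Δ, ash2Δ, and the arrays labelled pab1 and sec65, were used only to place the levels of the separated genes. The arrays labelled pab1 and sec65 did not lose the transcript of their gene: pab1 gave 1170 on its own array, against 1524 to 2076 on the other 7, and sec65 gave 2671 on its own, against 3479 to 5316. These arrays were also the most alike of the 28 pairs of deletion arrays (Pearson r across genes 0.997), so the counts over the other 4 deletions are also given without them. On the ash2Δ array ash2 gave 31.6, against 896 to 1458 on the other 7.

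Each class thus had 2 arrays of 2 different genotypes and no replicate of either genotype. No test was run, since the arrays of a class are not replicates, and every difference is described by the signals of the 4 arrays with no p-value. The difference between the 2 deletions of a class holds the effect of the genes as well as the error of an array. Cultures were harvested anywhere between an OD600 of 0.5 and 1.0, a measure of culture density, and no density was found for single cultures. How much density contributed to a difference was not tested.

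Growing haploid fission yeast replicates its DNA soon after nuclear division, so most cells have 2 copies of the genome (2C). A 1C cell has not replicated its DNA, and a 4C cell has replicated again without dividing. Fission yeast starved of nitrogen stops before replication, and the transcription factor Ste11 then turns on the genes for mating and meiosis. Stress signals run through the MAP kinase Sty1 to the transcription factor Atf1, glucose represses genes for other carbon sources, and the repressor Fep1 holds iron uptake genes down when iron is plentiful. Genes for making ribosomes are known to be high in fast growth and low under stress or starvation. Since the arrays measured bulk cultures, a change in the share of cells of one kind and a change in RNA per cell cannot be told apart.

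Of the 2899 genes, 696 (24%) were separated with 1C higher and 1118 (38.6%) with 1C lower, while 1085 (37.4%) overlapped. Every list count that follows is to be set beside these shares of 24% higher and 38.6% lower. The lists and their members were chosen with earlier results of these data known, so the counts are descriptions and not independent evidence. Some genes are on more than 1 list, so the lists are not separate from each other. Most separations were small. The gap means the log2 difference between the nearest arrays of the 2 classes. On the deposited values it had a median of 0.20 for the genes higher in 1C and 0.18 for those lower. It was under 0.1 for 205 genes higher and 349 genes lower. For the gaps that follow, values below background were first raised to it. The gap was larger than both within-class differences for 809 of the 1814 genes.

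A gap of at least 2-fold was reached by 35 genes with 1C higher (1.21% of named genes) and 6 genes with 1C lower (0.207%). All 41 lay above the background signal on all 4 arrays. For 32 of the 35 genes and for 6 of the 6 genes, the gap was larger than the difference within either class. The choice of a 2-fold gap largely sets this, since a 2-fold difference within a class was shown by only 34 genes in 1C and 86 in W4C. By the counts of 35 and 6, the large differences ran mostly toward higher signals in the 1C deletions, while the small differences ran mostly the other way.

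The 1C arrays were the more alike pair. Over named genes the SD of the log2 difference was 0.314 between SPAC27D7.08cΔ and SPBC2A9.02Δ, against 0.468 between meu29Δ and sgf73Δ, and it was 0.515 between the class means. Pearson correlations across genes, which are not independent replicates, were 0.986 for the 1C pair, 0.968 for the W4C pair and 0.942 to 0.959 for pairs across the classes. The meu29Δ array correlated with sgf73Δ less closely than with the arrays labelled pab1 (0.975) and sec65 (0.974) and with SPAC3F10.17Δ (0.971). A 2-fold difference within the class was shown by 34 genes in 1C and by 86 genes in W4C. The median difference over all genes, 1C minus W4C, was -0.07, and 98.6 to 99.1% of genes were above background on each array.

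**Figure D1:**
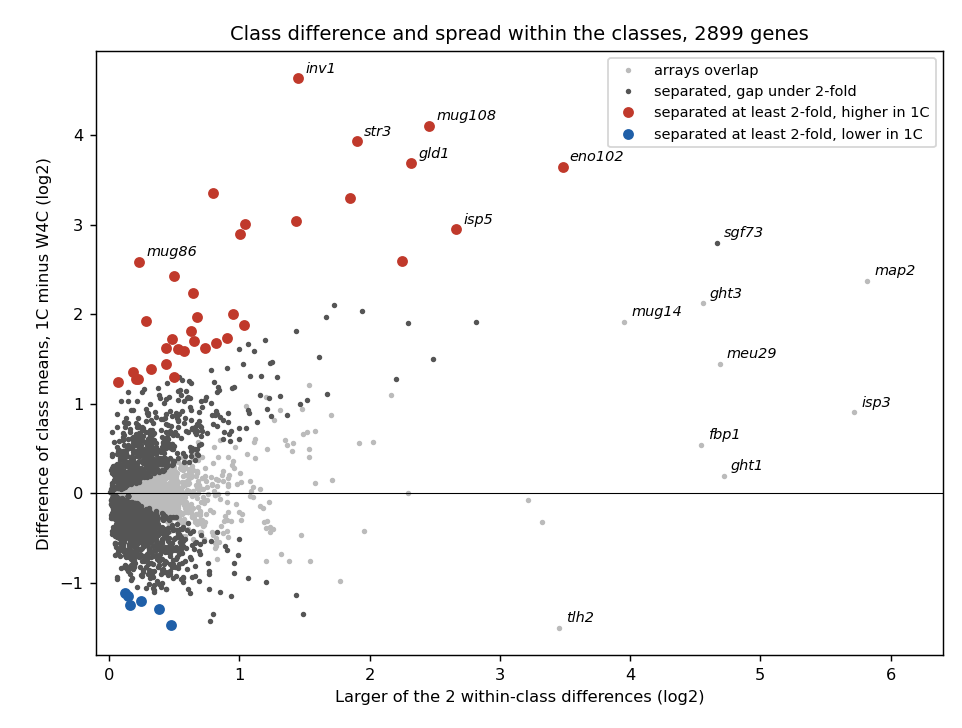
Class-mean difference (1C minus W4C, log2) on the vertical axis against the larger of the 2 within-class differences (log2) on the horizontal axis, 1 point per named gene, with the 35 genes 2-fold higher in 1C and the 6 genes 2-fold lower marked. Most marked genes, which were chosen for a large gap, have a difference between classes that exceeds the difference within them. Far more of them lie above 0 than below it.

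Transcripts of the deleted genes checked the W4C labels. The meu29 probe set gave a signal of 73.2 in meu29Δ, against 1884 in sgf73Δ and 1020 and 1004 in the 1C deletions. The sgf73 probe set gave 83.6 in sgf73Δ, against 2120 in meu29Δ and 2957 and 2885 in the 1C deletions. The sgf73 gene itself therefore counts as separated, with a gap of 0.44, but its W4C mean contains its own deletion. No named probe set was matched to SPAC27D7.08C or SPBC2A9.02, so the 1C labels were not checked in this way. Pairs of signals that follow are those of SPAC27D7.08cΔ and then SPBC2A9.02Δ for 1C, and of meu29Δ and then sgf73Δ for W4C.

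The largest gap of all belonged to inv1, the secreted invertase that splits sucrose and is repressed by glucose. Its signal was 9605 and 7915 in the 1C deletions, against 581 and 213 in the W4C deletions, a ratio of class means of 24.8. No overlap came near, since the lower 1C array stood 13.6-fold above the higher W4C array. The other 4 deletions spread from 889 to 4623, between the classes.

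Of 3 more sugar genes among those 2-fold higher, gal10 and sut1 were on no list and ght7 was the 1 of 8 hexose transporters to reach 2-fold. The uridine diphosphate galactose epimerase gene gal10 had 2505 and 2096 in 1C, against 437 and 218 in W4C. The hexose transporter gene ght7 had 341 and 921 in 1C, against 72.0 and 64.5 in W4C, and the sucrose and maltose transporter gene sut1 had 2618 and 1665 in 1C, against 652 and 631 in W4C. For gal10 and ght7 the other 4 deletions were all at the W4C level, at 175 to 352 for gal10 and 57.0 to 74.0 for ght7, so these genes set the 1C pair apart from all 6 other deletions.

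Glycerol use was a second branch of the same kind. Glycerol dehydrogenase, encoded by gld1, turns glycerol into dihydroxyacetone, which the kinase encoded by dak2 phosphorylates so that it can enter glycolysis. The gld1 signal was 11176 and 8623 in 1C, against 342 and 1704 in W4C, a ratio of 12.9. The dak2 signal was 6985 and 14403 in 1C, against 1565 and 993 in W4C, a ratio of 8.05. The enzymes differed in the other deletions, which lay near W4C for gld1 (1098 to 2192) and nearer 1C for dak2 (4030 to 12865). An enolase gene, eno102, had 11240 and 8233 in 1C, against 230 and 2568 in W4C, a ratio of 12.5 with an 11.2-fold difference inside the W4C pair. The third glycerol gene, gut2, the mitochondrial glycerol-3-phosphate dehydrogenase, went the other way on average (396 and 259 in 1C, 343 and 1172 in W4C) but overlapped.

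Across the lists of sugar genes, separation was partial. Of 12 glucose-repressed genes and their regulators, 7 were separated with 1C higher (58.3%, beside 24% of all named genes) and 0 lower. The 7 include gld1 and dak2, counted again among the trehalose and glycerol genes, and ste11, counted again with the mating genes. The median class difference was 0.67 in log2, beside -0.07 for all named genes. Of 8 hexose transporters, 4 were separated higher (50%) and 0 lower, with a median of 0.56. The pair of kinase A genes was in the first list: pka1, the catalytic subunit, had 2404 and 2088 in 1C, against 766 and 1187 in W4C, and cgs1, its regulatory subunit, had 1644 and 1296 in 1C, against 569 and 739 in W4C. Of 13 genes of glycolysis and fermentation, 5 were separated higher (38.5%) and 0 lower. The median of that list was only 0.08, and eno102, at 3.65, was its extreme. Of 9 trehalose and glycerol genes, which include gld1, dak2 and gut2, 5 were separated higher (55.6%) and 0 lower with a median of 0.68. The sugar medians leaned on 1 array each way. Without meu29Δ the medians were 0.32 for the glucose-repressed list, 0.05 for the hexose transporters and 0.38 for trehalose and glycerol, and without sgf73Δ they were 1.36, 1.61 and 1.17.

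**Figure D2:**
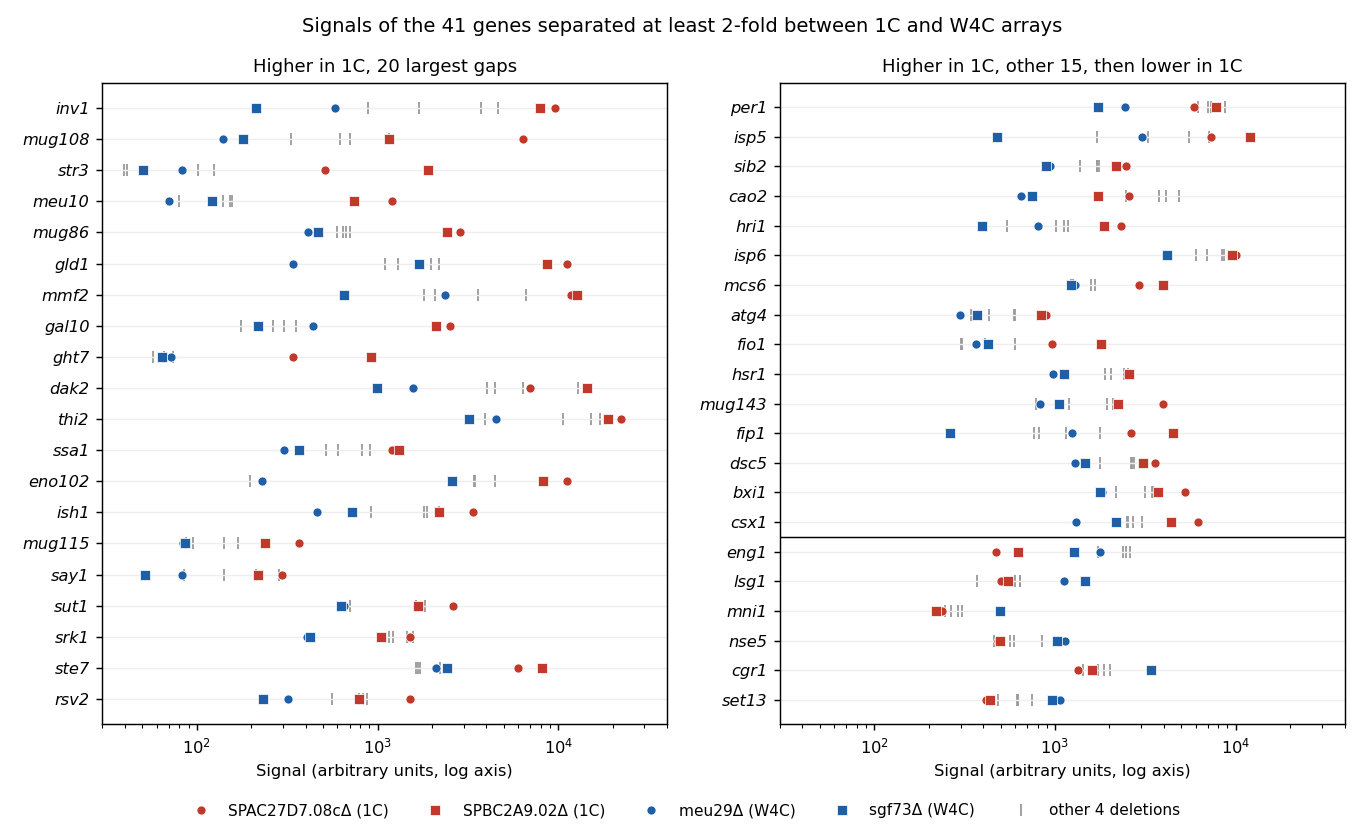
Signal of each of the 41 genes with a gap of at least 2-fold, on a log axis, with 1 point for each of the 8 deletion arrays; genes are ordered by their gap. The 1C points lie to the right of both W4C points for 35 genes, from inv1 (9605 and 7915, against 581 and 213) to csx1, and to the left of them for 6 genes, and the other 4 deletions fall on either side.

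Iron uptake gave a compact group. Fission yeast takes up iron by reduction and the ferroxidase and permease pair Fio1 and Fip1, or as iron bound to siderophores, small chelators that the Str transporters carry in. Of 10 such genes on the array, 7 were separated with 1C higher (beside 24% of all named genes) and 0 with 1C lower, 4 of them by 2-fold or more, and the median class difference was 1.31. The siderophore transporter gene str3 had 510 and 1907 in 1C, against 82.6 and 50.5 in W4C, a ratio of 15.3. Its relative str1 had 2912 and 7851 in 1C, against 1017 and 1840 in W4C. For both transporters the higher array was SPBC2A9.02Δ.

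The same array led for the reductive route. The signal of fio1 was 958 and 1795 in 1C, against 367 and 427 in W4C, and that of its neighbour fip1 was 2645 and 4472 in 1C, against 1247 and 262 in W4C. These genes lie next to each other on chromosome I in the RefSeq gene table. The ferric reductase gene frp1 had 712 and 2057 in 1C, against 324 and 848 in W4C, and overlapped through SPAC27D7.08cΔ. Siderophore synthesis differed less between the 1C arrays, with sib2 at 2477 and 2179 in 1C, against 935 and 888 in W4C. The iron regulators were not shifted in this way: of 8, 2 were separated higher and 2 lower, and the iron repressor gene fep1 had 1002 and 947 in 1C, against 808 and 770 in W4C. The median of the uptake list stayed between 1.18 and 1.62 when each array was left out in turn. Zinc and copper genes had 3 of 8 separated higher and 0 lower, from ctr4 at -0.74, a copper transporter, to zym1 at 1.04, a metallothionein.

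Genes induced by nitrogen starvation were the next group, with 8 of 13 separated higher (61.5%, beside 24% of all named genes), 1 lower and a median of 0.90. The amino acid transporter gene isp5 had 7261 and 11937 in 1C, against 3033 and 479 in W4C. The permease gene per1 had 5863 and 7793 in 1C, against 2424 and 1736 in W4C, and the other 4 deletions were at the 1C level (6187 to 8766). The vacuolar protease gene isp6 had 10037 and 9556 in 1C, against 4130 and 4168 in W4C, with hardly any spread inside either class. One member went the other way, the ammonium transporter gene amt3, with 156 and 81.6 in 1C, against 291 and 215 in W4C. The list median was 0.47 without SPBC2A9.02Δ and 0.46 without sgf73Δ. As median deviations from each gene's mean over the 8 deletion arrays, the list stood at 0.17 and 0.41 in 1C. It stood at -0.31 and -0.72 in W4C and at 0.10 to 0.32 in the other 4 deletions. So the W4C arrays were the low ones, and only SPBC2A9.02Δ lay above the other 4.

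Vacuolar and autophagy genes, which recycle cell contents, were shifted by smaller amounts but in larger number. Of 55 on the array, 34 were separated with 1C higher (61.8%, beside 24% of all named genes) and 4 with 1C lower, with a median of 0.31. The protease gene atg4, which processes Atg8, led with 892 and 839 in 1C, against 297 and 370 in W4C. The atg8 signal, for the protein that coats the autophagosome membrane, was 2693 and 2478 in 1C, against 1499 and 1605 in W4C. At the other end vps36, an endosomal sorting gene, had 478 and 503 in 1C, against 575 and 566 in W4C. Proteasome genes, which break proteins down outside the vacuole, had 14 of 28 separated higher (50%, beside 24% of all named genes). Lower were 5, and the median was 0.11. By the same measure the proteasome list stood at 0.01 and -0.01 in 1C and at -0.06 and -0.08 in W4C. The other 4 deletions stood at 0.05 to 0.07, above both 1C arrays.

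The stress list held members of the Sty1 and Atf1 pathway itself, such as sty1, wis1, pcr1 and pyp1, as well as stress-induced genes. Of its 22 genes, 16 were separated with 1C higher (72.7%, beside 24% of all named genes). With 1C lower there were 0 (38.6% of all named genes), and the median was 0.72. The ish1 gene, which encodes a stress-induced nuclear envelope protein, was the 1 that reached 2-fold, with 3369 and 2184 in 1C, against 461 and 719 in W4C. The atf1 gene itself had 2509 and 1749 in 1C, against 457 and 956 in W4C. For hsp16, a small heat shock protein gene, the signals were 16880 and 7369 in 1C, against 3884 and 3009 in W4C. The SPAC27D7.08cΔ array was the higher 1C array for ish1, atf1 and hsp16, as it was for 23 of the 35 genes that were 2-fold higher in 1C. Leaving out meu29Δ brought the list median to 0.30. In median deviation from the mean of the 8 deletion arrays, the list stood at 0.22 and 0.15 in 1C. It stood at -0.65 and -0.17 in W4C and at -0.09 to 0.22 in the other 4 deletions. The ash2Δ array (0.22) was thus level with the 1C arrays, and meu29Δ was the lowest of the 8.

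On no list, but 2-fold higher, were 5 regulators, grouped here after their values were seen: srk1, a kinase downstream of Sty1; rsv2 and hsr1, transcription factors; csx1, an RNA-binding protein that stabilises atf1 mRNA; and hri1, a kinase that slows translation under stress. The srk1 signal was 1520 and 1052 in 1C, against 406 and 424 in W4C, and the rsv2 signal was 1518 and 787 in 1C, against 320 and 233 in W4C. For srk1, rsv2 and hsr1 the other 4 deletions were all nearer 1C, at 1160 to 1575, 556 to 877 and 1900 to 2548. These 3 genes thus marked low signals in the W4C pair more than high signals in the 1C pair. The hri1 signal was 2321 and 1859 in 1C, against 809 and 395 in W4C.

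Chaperone genes did not follow. Of 16 heat shock and chaperone genes, 3 were separated higher (18.75%, near the 24% of all named genes). Lower were 8 (50%, beside 38.6% of all named genes), and the median was -0.36. The Hsp70 gene ssa1 had 1208 and 1323 in 1C, against 302 and 366 in W4C, while its paralog ssa2 had 7859 and 11071 in 1C, against 12561 and 14076 in W4C. The mitochondrial co-chaperonin gene hsp10 had 7000 and 7730 in 1C, against 11254 and 12188 in W4C. Probe sets of the Hsp70 genes may catch RNA of both. The list median ranged from -0.63 without meu29Δ to -0.13 without sgf73Δ. Genes for oxidative stress defence were divided, with 8 of 22 separated higher, 4 lower and a median of -0.01.

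Mating genes were higher in 1C in part. Of 16 Ste11 and pheromone signalling genes, 9 were separated with 1C higher (56.25%, beside 24% of all named genes) and 1 lower. Their median was 0.60. The ste7 gene, an arrestin needed for mating, led them with 5968 and 8088 in 1C, against 2101 and 2410 in W4C and 1643 to 2220 in the other 4 deletions. The ste11 signal was 7591 and 7375 in 1C, against 2911 and 6400 in W4C. The RNA-binding meiosis regulator gene mei2 had 5304 and 6133 in 1C, against 1338 and 3175 in W4C. In the other 4 deletions ste11 was at 908 to 1744 and mei2 at 530 to 1561. So sgf73Δ also stood above those 4 for both genes, and meu29Δ did for ste11. All 5 of the cell fusion genes were separated with 1C higher (beside 24% of all named genes), with a median of 1.16. Among them dni2 had 2497 and 2025 in 1C, against 280 and 1076 in W4C. The fusion formin gene fus1 had 283 and 308 in 1C, against 120 and 145 in W4C. Without meu29Δ these medians were 0.33 for the signalling list and 0.70 for cell fusion.

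A set of genes was high in both 1C deletions and in sgf73Δ, and low in meu29Δ and the other 4. These genes overlapped between the classes and were chosen after their values were seen. The P-factor pheromone gene map2 had 6755 and 11587 in 1C, against 228 in meu29Δ and 12858 in sgf73Δ, and 125 to 172 in the other 4. The meiotically upregulated gene mug14 had 14977 and 18767 in 1C, against 1129 and 17491 in W4C, and 681 to 1099 in the other 4. The hexose transporter gene ght3 had 1628 and 4258 in 1C, against 125 and 2938 in W4C, and 72.7 to 97.1 in the other 4.

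For 3 more genes sgf73Δ was the highest of all. The gluconeogenesis gene fbp1, for fructose-1,6-bisphosphatase, had 2651 and 2229 in 1C, against 346 and 8066 in W4C. The transporter gene ght1 had 1636 and 1314 in 1C, against 250 and 6567 in W4C, and isp3, a spore wall gene, had 572 and 1248 in 1C, against 62.4 and 3280 in W4C. The meu29Δ array lay below both 1C arrays for all 6 of these genes, and the fold between sgf73Δ and meu29Δ ran from 15.5 for mug14 to 56.5 for map2. Since the 6 genes were picked for this pattern, they say nothing of how common it was.

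**Figure D3:**
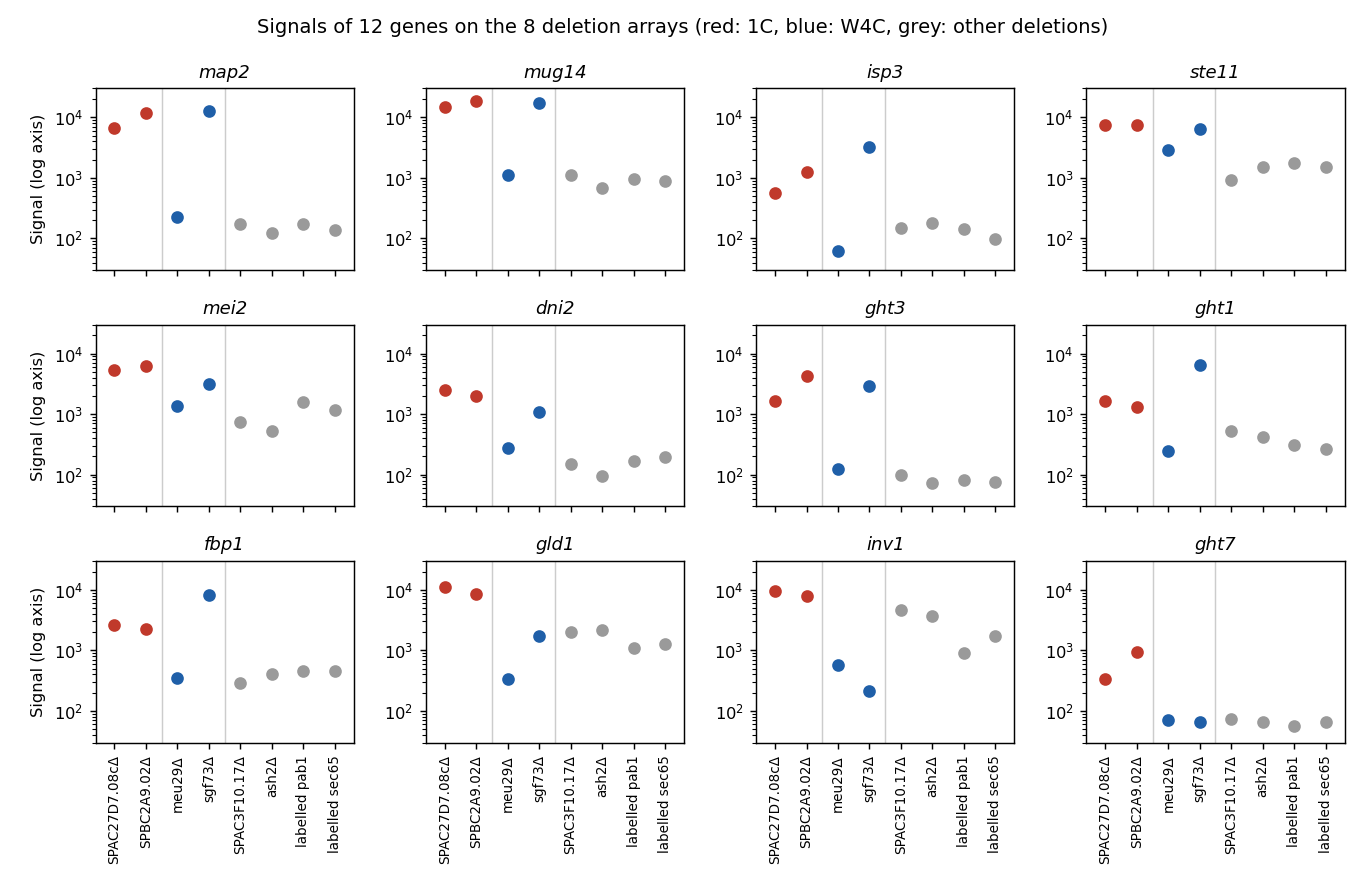
Signals on a log axis of mating and sugar genes in each of the 8 deletion arrays, in red for 1C, blue for W4C and grey for the others. For map2, mug14, ght3, isp3, fbp1 and ght1 the sgf73Δ points stand with or above the 1C points, and meu29Δ stands below both 1C arrays, while inv1 and gld1 have both W4C arrays below both 1C arrays.

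Pheromone and receptor genes as a list were less shifted, with 4 of 12 separated higher (33.3%, near the 24% of all named genes) and 1 lower. The median was 0.24, and it was -0.026 without meu29Δ. These genes also served as a check of mating type. The M-factor gene mfm1 had 270 and 165 in 1C, against 71.1 and 127 in W4C, and the mating-type regulator gene map1 had 1529 and 1215 in 1C, against 769 and 1372 in W4C. The P-factor receptor gene mam2 had 439 and 265 in 1C, against 373 and 351 in W4C. Only mfm1 of these 3 was separated, with a gap of 0.37, and all were above background on the 4 arrays. The ura4 signal, for a gene that is deleted in the background given for the wild type, was low on all 4 arrays, at 69.4 and 90.5 in 1C, against 73.1 and 66.3 in W4C.

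Genes named for meiotic upregulation (mug, meu and mde) were found at both ends. Of 116, 25 were separated higher and 37 lower with a median of -0.05, but 5 were 2-fold higher and 0 were 2-fold lower. The mug108 signal was 6375 and 1163 in 1C, against 140 and 180 in W4C, a ratio of 17.2 with a 5.5-fold difference inside the 1C pair. The spore wall gene meu10 had 1201 and 738 in 1C, against 69.7 and 121 in W4C, and mug86 had 2850 and 2434 in 1C, against 414 and 466 in W4C. For meu10 and mug86 all of the other 4 deletions were nearer W4C, at 79.5 to 157 and 600 to 705. The remaining members of the 5 were mug115 and mug143, with ratios of 3.5 and 3.21. Of 37 genes of meiotic recombination and sporulation, 5 were separated higher and 16 lower, with a median of -0.15. These were 13.5% and 43.2% of the list, so that the share lower was near the 38.6% of all named genes.

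The other genes that were 2-fold higher had mixed roles. The mmf2 gene, a relative of the mitochondrial RidA protein Mmf1, had 11798 and 12755 in 1C, against 2363 and 656 in W4C, and lies beside isp5 on chromosome I. The thiamine synthesis gene thi2 had 22165 and 18888 in 1C, against 4526 and 3213 in W4C. The thiamine-regulated list did not follow it, with 3 of 9 separated higher, 4 lower and a median of -0.07, and its pyridoxine transporter gene bsu1 had 3392 and 6601 in 1C, against 7736 and 10021 in W4C. The mcs6 gene, the kinase of the general transcription factor TFIIH that also activates cell cycle kinases, had 2932 and 3970 in 1C, against 1282 and 1225 in W4C and 1229 to 1660 in the other 4. The amine oxidase gene cao2 had 2560 and 1719 in 1C, against 650 and 744 in W4C, and 2480 to 4830 in the other 4. The gene say1, which shares its name with a sterol deacetylase of budding yeast, had 297 and 219 in 1C, against 82.4 and 51.7 in W4C.

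Just inside the 2-fold limit stood csx1 with a gap of 1.01, bxi1, of the Bax inhibitor family, with 1.02, and dsc5, a subunit of a Golgi ubiquitin ligase, with 1.07. Just outside it were the glucan synthase gene mok13, whose gap fell short of 1 by rounding, mug147 at 0.99 and the meiotic transcription factor gene mei4 at 0.97. The mei4 signal was 310 and 306 in 1C, against 147 and 156 in W4C.

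On the lower side, 6 genes reached 2-fold. Of these, set13, cgr1 and mni1 stayed past it after quantile normalization, and set13 and cgr1 stayed past it with a pseudocount of 50 in place of the background, while eng1, lsg1 and nse5 fell short under both. The gene set13, for a methyltransferase of a ribosomal protein, had 413 and 435 in 1C, against 1068 and 956 in W4C, 2.39-fold higher in W4C. The ribosome biogenesis gene cgr1 had 1345 and 1595 in 1C, against 3342 and 3413 in W4C, and lsg1, a GTPase gene for export of the large ribosomal subunit, had 503 and 548 in 1C, against 1128 and 1468 in W4C. A subunit gene of the Smc5-Smc6 complex, which acts in DNA repair, was the fourth: nse5 had 481 and 496 in 1C, against 1137 and 1031 in W4C. The mni1 gene had 237 and 218 in 1C, against 493 and 494 in W4C. For cgr1, lsg1 and mni1 the other 4 deletions were all nearer 1C, at 1427 to 2005, 369 to 643 and 247 to 305, so that the W4C arrays were the high ones.

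Only eng1 among the 6 had the other 4 deletions on the W4C side. Its product is the endo-glucanase that dissolves the septum when daughter cells part. The eng1 signal was 470 and 625 in 1C, against 1774 and 1276 in W4C, and 1724 to 2611 in the other 4, so the 1C pair held the lowest levels. The other cell separation genes were divided, with 4 of 8 separated lower, 1 higher and a median of -0.18. The adg2 gene had 988 and 1119 in 1C, against 1797 and 2728 in W4C, while sep1, the transcription factor gene upstream, was the list's highest at 0.84.

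Next below the limit came naa40, for an N-terminal acetyltransferase, with 170 and 99.5 in 1C, against 325 and 379 in W4C, then wis2, for a cyclophilin, with 3064 and 3171 in 1C, against 6028 and 10452 in W4C. The gtp1 gene followed with 1580 and 1644 in 1C, against 3104 and 3153 in W4C. The gaps were -0.93, -0.93 and -0.92. The rest of the 15 largest gaps on this side, from -0.92 to -0.85, were hut1, mug125, trm13, dph2, rtt109 and meu14, of which trm13 and dph2 modify tRNA and translation factor eEF2, and rtt109 acetylates histone H3.

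Ribosome biogenesis genes were shifted together. Of 37 genes on the array, 34 were separated with 1C lower (91.9%, beside 38.6% of all named genes) and 0 with 1C higher, and the median class difference was -0.61. The nucleolar gene ppp1 had 1035 and 1349 in 1C, against 2506 and 2275 in W4C, and ebp2, whose product works with it on the large subunit, had 1268 and 1594 in 1C, against 2855 and 2507 in W4C. The helicase gene drs1 was least shifted, with 7253 and 8194 in 1C, against 9896 and 7928 in W4C. The counts of 0 higher and 34 lower also held after median centring and after quantile normalization. In the other deletions ppp1 was at 1309 to 1561, so the high array values were those of W4C. RNA polymerase I, which makes ribosomal RNA, gave nuc1, its largest subunit, at 1469 and 1744 in 1C, against 3183 and 2845 in W4C.

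Cytosolic ribosomal protein genes were separated almost as often but by far less. Of 119, 108 were lower in 1C (90.8%) and 0 were higher, with a median of -0.12 beside -0.07 for all genes. The extremes were rps1401, with 3086 and 6458 in 1C, against 8795 and 8446 in W4C, and rpl1001, with 22890 and 21620 in 1C, against 21641 and 21082 in W4C. Signals of many of these genes lie near the top of the array's range, and probe sets of paralogs may share RNA. After median centring 84 were lower and 2 higher, and after quantile normalization 87 were lower and 3 higher. Mitochondrial ribosomal protein genes had 29 of 48 separated lower (60.4%, beside 38.6% of all named genes), 4 higher and a median of -0.23. The 41 genes of the respiratory chain and ATP synthase had 6 lower (14.6%), 2 higher and a median of 0.01.

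**Figure D4:**
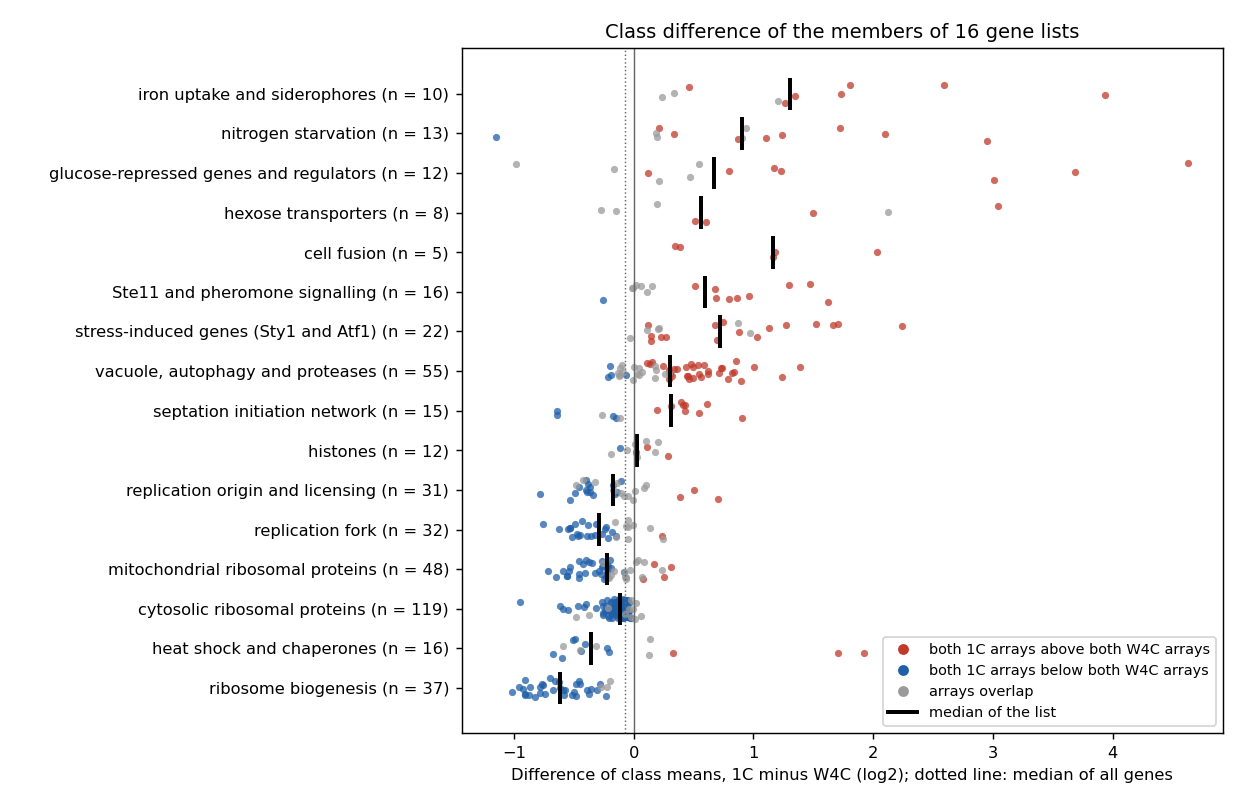
Class-mean differences (1C minus W4C, log2) of single genes, by gene list, with each list's median marked and a line at the median of all named genes, -0.07. Iron uptake (1.31), nitrogen starvation (0.90) and the Sty1 and Atf1 stress list (0.72) have medians to the right of that line, and ribosome biogenesis (-0.61) lies to the left of it. The stress list, labelled stress-induced, also holds genes of the pathway itself.

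Replication genes were examined because the 1C class is named for a peak of cells with unreplicated DNA. In the study's cytometry most cells of both 1C deletions were still at 2C. Of 32 genes of the replication fork, 22 were separated with 1C lower (68.8%, beside 38.6% of all named genes) and 1 with 1C higher (24% of all named genes), with a median of -0.29. Replication factor C, the clamp loader, had rfc3 at 938 and 961 in 1C, against 1838 and 1409 in W4C, and rfc2 at 1034 and 1093 in 1C, against 1632 and 1642 in W4C. At the high end ssb1, the large subunit of the single-strand binding protein, had 1798 and 2232 in 1C, against 1448 and 1981 in W4C, which overlapped. None of these genes reached a 2-fold gap. In median deviation from each gene's mean over all the deletion arrays, the fork list stood at -0.101 and -0.175 in 1C. It stood at 0.143 and 0.091 in W4C. Among the other deletions it stood at -0.098 in ash2Δ, 0.108 in SPAC3F10.17Δ, and 0.013 and 0.008 in the arrays labelled pab1 and sec65. The ash2Δ array was thus level with SPAC27D7.08cΔ, and SPAC3F10.17Δ lay between the W4C arrays, so low fork signals were not limited to the 1C pair.

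Of 31 origin and licensing genes, 15 were separated lower (48.4%, near the 38.6% of all named genes) and 3 higher, with a median of -0.17. The psf2 gene of the GINS complex was highest with 1540 and 1226 in 1C, against 869 and 823 in W4C. The licensing factor gene cdc18 had 537 and 745 in 1C, against 646 and 1213 in W4C, and cdt1 had 324 and 433 in 1C, against 421 and 418 in W4C, and both overlapped. The list of MBF, the factor that turns on genes at the start of replication, with its subunits, regulators and targets, had 5 of 20 separated higher and 6 lower with a median of -0.09.

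The study followed abp1 and abp2, whose products bind replication origins, in the 1C deletions. It compared them with wild type and reported both lower by array and by real-time PCR. Their overexpression partly rescued growth and partly relieved the G1 arrest. The comparison here, 1C against W4C without wild type, does not bear on that result. The gene it called abp1, now cbp1, had 901 and 973 in 1C, against 1048 and 931 in W4C, and 1176 to 1567 in the other 4. The abp2 signal was 257 and 143 in 1C, against 363 and 159 in W4C, and 414 to 770 in the other 4. Both genes overlapped between the classes, and for both all 4 compared arrays lay below the other 4. Of the 5 genes in the list of CENP-B homologs and origin-binding proteins only cbh2 was separated, with 409 and 510 in 1C, against 860 and 715 in W4C.

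Among 17 genes that the study singled out for replication and cytokinesis, 8 were separated with 1C lower and 0 with 1C higher, with a median of -0.49 that was -0.25 without sgf73Δ. The study chose these genes on these arrays, so their direction is not independent evidence. They were eng1, fic1, ark1, cdc22, rfc3, rad2, slp1 and mik1. The slp1 gene, an activator of the anaphase-promoting complex, had 406 and 414 in 1C, against 659 and 1186 in W4C, and 718 to 856 in the other 4. The Aurora kinase gene ark1 had 233 and 188 in 1C, against 347 and 418 in W4C, and 198 to 226 in the other 4. So slp1 was low in 1C and ark1 was high in W4C relative to the same 4 deletions.

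The lists for cell division were otherwise mixed. Septation initiation genes had 9 of 15 separated higher (60%, beside 24% of all named genes) and 4 lower. Their median was 0.31, which was 0.14 without SPAC27D7.08cΔ. The ubiquitin ligase gene dma1, an inhibitor of that network, was highest with 2088 and 1635 in 1C, against 997 and 973 in W4C, and the kinase gene sid1 was lowest with 313 and 194 in 1C, against 360 and 410 in W4C. Genes of the contractile ring and septins had 8 of 27 higher and 8 lower with a median of -0.01. Chromosome segregation genes had 9 of 39 higher and 14 lower with a median of -0.07, and DNA damage checkpoint and repair genes had 9 of 41 higher and 13 lower with a median of -0.03. These last medians differed little from that of all named genes.

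Chromatin genes bear on the deletion of sgf73, which encodes a SAGA subunit. Of 18 SAGA subunit genes, 8 were separated lower and 4 higher with a median of -0.05. One of the 4 was sgf73 itself, through its own deletion, and without it 3 of 17 were higher and 8 lower with a median of -0.06. The acetyltransferase gene gcn5 was the lowest at -0.87. Of 10 genes of the Set1 and Lid2 complexes, 6 were separated lower (60%, beside 38.6% of all named genes) and 0 higher. Among those lower was swd2 at 577 and 529 in 1C, against 1135 and 1004 in W4C. Histone genes were close together, with a median of 0.02 and a range from -0.19 to 0.29. Heterochromatin and RNA interference genes had 6 of 22 higher, 5 lower and a median of -0.05. The subtelomeric helicase gene tlh2 had 36.5 and 57.3 in 1C, against 39.2 and 430 in W4C, which was 1 high array.

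Set against the other 4 deletions, both 1C arrays lay above all 4 for 27 of the 35 genes that were 2-fold higher (77.1%), and both W4C arrays lay below all 4 for 19 (54.3%). Over all 696 genes separated with 1C higher, the shares were 33.2% and 51.7%. All 4 other deletions were nearer the W4C mean for 9 of the 35 (25.7%), namely str3, meu10, mug86, gld1, gal10, ght7, ste7, mcs6 and fio1. All 4 were nearer the 1C mean for 6 (17.1%), namely dak2, srk1, rsv2, per1, cao2 and hsr1, and 20 were mixed. Over the 696 genes the order was the other way round, with 111 (15.9%) wholly nearer W4C and 240 (34.5%) wholly nearer 1C. Without the arrays labelled pab1 and sec65, the remaining pair was nearer W4C for 14 of the 35 and nearer 1C for 7, beside 183 and 282 of the 696, and both 1C arrays lay above the pair for 30 of the 35 (85.7%) and both W4C arrays below it for 20 (57.1%). Over the 696 genes these last shares were 44% and 56.5%. Among the 6 genes that were 2-fold lower, both W4C arrays lay above all 4 for 5, and both 1C arrays lay below all 4 for 3, and these counts were also 5 and 3 without the arrays labelled pab1 and sec65.

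Several of the 2-fold genes lie near chromosome ends. Within the 50 protein-coding genes nearest each end in the RefSeq gene table, a window chosen after the values were seen, 87 named genes were measured and 9 were 2-fold higher in 1C (10.3%). They were dak2, isp5, mmf2 and str3 on chromosome I and cao2, eno102, gal10, ght7 and say1 on chromosome II. Of 2805 genes farther in, 26 were (0.927%). By chromosome, the end genes were 4 of 15 on I, 5 of 33 on II and 0 of 39 on III, where 19 of the 39 were separated with 1C lower. The neighbouring pairs isp5 with mmf2 and fio1 with fip1 were the only 2 among adjacent genes in which both were 2-fold higher.

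Of the remaining metabolic lists, purine synthesis genes had 6 of 10 separated lower (60%, beside 38.6% of all named genes) and 0 higher. Their median was -0.24. Sulphur assimilation genes had 3 of 9 lower (33.3%, near the 38.6% of all named genes) and 0 higher, with a median of -0.17. Amino acid synthesis genes had 8 of 48 higher and 11 lower with a median of -0.03. Flocculin and adhesion genes had 1 of 5 higher and 1 lower with a median of -0.02, and of 3 phosphate genes 1 was higher and 2 were lower with a median of -0.27. Sterol and fatty acid synthesis genes had 10 of 29 higher and 5 lower with a median of 0.05, led by erg1, squalene epoxidase, at 1.24. Cell wall genes had 8 of 25 higher and 5 lower with a median of 0.00, from psu1 at -0.99 to mok13 at 1.13.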

How the data were processed

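Total RNA from untreated cells in exponential growth was labelled with the 3' IVT Express kit and hybridised to Affymetrix Yeast Genome 2.0 arrays, which also carry probe sets of S. cerevisiae. The deposited values are log2 signals, 1 column per array; the authors had them analysed by a company, the labels name MAS5 without a role, and the sources used here do not say how the arrays were normalized. Signals printed are 2 to the power of the deposited value.

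Probe sets with 1 gene symbol were matched to the RefSeq gene table of ASM294v3, which gave 2917 probe sets of 2899 genes. Where a gene had several, the one of the most gene-specific type, by the ending of its name, was kept. Between probe sets of the same type, the one with the highest mean was kept. The background of an array was the 95th percentile of its 2593 S. cerevisiae probe sets (36.4 and 40.2 in the 1C arrays, 38.8 and 39.3 in the W4C arrays). Gaps used values raised to that background, except for the median gaps and the counts of gaps under 0.1. These and separation used the deposited values. A gap of 2-fold was 1 in log2. The number of arrays limits the precision, and no test was run. Code was tested on simulated data. Python 3.11.15, numpy 2.4.6, pandas 2.3.3 and matplotlib 3.10.9 were used.

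Genes named are the 15 largest gaps in each direction, 2-fold members of the 44 gene lists, the deleted and singled-out genes, the 3 genes on either side of the 2-fold limit and each list's extremes. The others named were chosen after their values were seen. Members and lists were chosen with earlier results of these data known, and names that matched a different gene were taken out of the lists after matching. The classes come from the study's cytometry. The alternatives were median centring, quantile normalization, 3 other treatments of low values, the mean of a gene's probe sets, gaps of 1.5-fold and 3-fold, class means, leaving out each array and, chosen after seeing the data, leaving out the arrays labelled pab1 and sec65.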

Additional observations from a re-analysis of the deposited data

How the results depend on the processing

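The count of genes 2-fold higher and 2-fold lower in 1C was 37 and 6 after median centring, of which 35 and 6 were in the original counts of 35 and 6, and 37 and 6 after quantile normalization, of which 34 and 3 were. Adding a pseudocount of 50 in place of the background gave 34 and 2. A gap of 1.5-fold gave 107 and 77, a gap of 3-fold gave 14 and 0, and a 2-fold difference of class means gave 105 and 28. Leaving out each array in turn gave 44 to 95 higher and 19 to 27 lower, since 1 array on a side is easier to separate; genes separated by any amount were then 852 to 1012 higher and 1356 to 1454 lower. The number of 2-fold higher genes for which all 4 other deletions were nearer W4C was 9, against 20 with a 1.5-fold gap, 32 with class means, 12 to 32 without 1 array and 14 without the arrays labelled pab1 and sec65, a choice made after seeing the data. Quantile normalization put the median of cytosolic ribosomal protein genes at -0.075.

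Without 1 array the list medians were 1.18 to 1.62 for iron uptake, 0.46 to 1.22 for nitrogen starvation and 0.30 to 0.99 for the Sty1 and Atf1 stress list. They were 0.26 to 0.44 for vacuole and autophagy, -0.73 to -0.49 for ribosome biogenesis and -0.15 to -0.09 for cytosolic ribosomal proteins. A list median of at least 0.1 changed sign in 2 cases, both without meu29Δ: pheromones and their receptors, at -0.026 (to 0.47 without sgf73Δ), and sulphur assimilation, at 0.012 (to -0.36 without sgf73Δ). For the class differences of single named genes, each recomputed under each alternative that applied, 494 recomputed values stayed within the spread inside the classes and 6 moved. All 6 came from quantile normalization or the pseudocount. Without 1 array, the shift is fixed by the within-class difference itself, so staying within the spread is no check there. Leaving out the background or averaging probe sets did not change these values, and a higher background changed only say1 and str3. Median centring shifted all of them by the same small amount. Most of the 494 outcomes were therefore fixed in advance and do not measure robustness. For eno102 the difference ran from 1.91 to 5.39 without 1 array. No paired analysis was possible because each genotype had 1 array and the labels number every sample 1. The 2 arrays in a class limit the precision. All 41 genes with a 2-fold gap were above background on all 4 arrays.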

Other observations

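Probe sets without a gene symbol were outside the comparison. Of 5177, 2057 were above background on all 4 arrays, and 51 had a 2-fold gap with 1C higher and 12 with 1C lower, which is 2.48% and 0.583% of the number above background. Of 213 control probe sets and 2593 S. cerevisiae probe sets, 0 had a 2-fold gap in either direction. Within the 1C pair the largest differences between arrays were those of mug108, 5.5-fold, and lsd90, whose signal was 6513 in SPAC27D7.08cΔ and 1331 in SPBC2A9.02Δ, against 467 in meu29Δ and 1325 in sgf73Δ.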
